A study of Arabidopsis thaliana with 21 samples.

Results

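The data concern 5 pairs of neighbouring Arabidopsis thaliana genes, 10 genes of the 21156 in the deposited table, in which both genes of a pair lie on the same strand and the gene that follows (the downstream gene) had more messenger RNA in some of the feeding groups. The pairs were AT2G32240 with AT2G32235, APS1 (AT3G22890) with NRPD7 (AT3G22900), AT1G72120 with AT1G72125, PDC2 (AT5G54960) with AT5G54950, and AT3G21670 with AT3G21660. They were chosen from the measured values, because the downstream gene was higher in fed leaves, and which comparison chose each pair is not recorded. Differences between groups with and without LiCl, and with and without ATP, are therefore described with no test, and p-values for the members are given only where PAP was added to control leaves. In these libraries the downstream gene was higher with LiCl in the first 2 pairs and higher with ATP in the other 3, so the pairs did not share a single response. In leaves without LiCl, AT2G32235 was also higher with ATP, by less than with LiCl. In PAP-fed leaves its upstream gene AT2G32240 was higher with ATP too.

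Leaves were cut from 35-day-old plants, F1 hybrids between the accessions Col-0 and Ler, and took up solutions through the petiole before messenger RNA was sequenced. The series title concerns transcription by RNA polymerase II that runs past gene ends into neighbouring genes in SAL1-PAP-XRN signalling. The control group was fed buffer and no agent. The agents were LiCl at 100 mM, PAP at 100 µM and ATP at 1 mM, each fed singly, and PAP was also combined with ATP, with LiCl or with both, which made 7 groups of 3 libraries. All groups share the hybrid background, excision and buffer feeding. No group received ATP and LiCl without PAP, and no group received another salt, so an effect of lithium and an effect of chloride or of salt in general cannot be told apart. For PAP the sample labels state 100 µM but the treatment protocol states 1 mM or 100 mM, and no feeding time is given.

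PAP (3'-phosphoadenosine 5'-phosphate) is a by-product of sulfate transfer from PAPS. The phosphatase SAL1 breaks PAP down and is inhibited by lithium, and PAP in turn inhibits the XRN exoribonucleases, which degrade RNA from its 5' end. The nuclear XRN enzymes degrade the RNA that RNA polymerase II is still making after the transcript has been cleaved at the gene's end, a step that helps the polymerase to leave the DNA. A gene that starts a short distance after another on the same strand lies in the path of a polymerase that does not stop.

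The libraries held 19190821 to 27155547 reads assigned to genes, and 1 read was worth 0.0368 to 0.0521 CPM (counts scaled to the library total). Libraries are numbered 1 to 21 in the order of the table: control 1 to 3, ATP 4 to 6, PAP 7 to 9, LiCl 10 to 12, PAP + LiCl 13 to 15, PAP + ATP 16 to 18 and PAP + ATP + LiCl 19 to 21. Nothing says that libraries of a group came from separate plants, so p-values measure the spread between these libraries only. Leaf genes were abundant throughout, with RBCS1A, the small subunit of Rubisco, at 3116 to 11847 CPM. The root genes PYK10 and NRT2.1 reached at most 0.675 CPM and the floral gene AG at most 0.508 CPM. In bulk leaf RNA, fewer cells of a type and less RNA per cell cannot be told apart.

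The gaps between the annotated end of the upstream gene and the annotated start of the downstream gene were 6 to 220 bases long (RefSeq annotation of TAIR10.1). They are shown because they are the stretch that a polymerase leaving the first gene crosses before it enters the second. Each is given 5' to 3' on the strand that both genes are read from, and capitals mark a match to TATAAA, the core of a TATA box, or to its reverse complement TTTATA.
AT2G32240 to AT2G32235, chr2:13684249-13684298, minus strand: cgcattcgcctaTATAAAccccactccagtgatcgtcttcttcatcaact
APS1 to NRPD7, chr3:8115025-8115064, plus strand: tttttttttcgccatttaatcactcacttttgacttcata
AT1G72120 to AT1G72125, chr1:27134102-27134107, plus strand: aggtca
PDC2 to AT5G54950, chr5:22310333-22310552, minus strand: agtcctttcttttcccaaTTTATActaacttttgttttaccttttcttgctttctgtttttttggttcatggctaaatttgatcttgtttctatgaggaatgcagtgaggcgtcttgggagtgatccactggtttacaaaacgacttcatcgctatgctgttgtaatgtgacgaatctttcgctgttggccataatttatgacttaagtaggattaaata
AT3G21670 to AT3G21660, chr3:7626655-7626756, minus strand: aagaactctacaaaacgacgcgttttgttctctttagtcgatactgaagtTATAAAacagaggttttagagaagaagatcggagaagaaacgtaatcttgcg

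On the transcribed strand TATAAA occurred in 2 of the 5 gaps, at base 13 of the 50 between AT2G32240 and AT2G32235 and at base 51 of the 102 between AT3G21670 and AT3G21660. The gap after PDC2 held it on the other strand, at base 19 of 220. AT3G21660 has 0 bases annotated ahead of its coding sequence, so the gap before that gene runs to the annotated coding start. Among 27444 protein-coding genes, 4.97% had TATAAA on the transcribed strand within the first 50 bases past their end and 10.2% within the first 102, while 34.1% had it on either strand within 220. These windows lie past gene ends, whatever follows, and not before gene starts. They are therefore no background for a promoter element. The polyadenylation signal AATAAA was searched on both strands and matched in none of the gaps. Of protein-coding genes, 44.4% held AATAAA on either strand within 220 bases past their end, 13.6% within 50 and 0.35% within 6. The search began past the annotated end of the upstream gene, so it does not show whether that gene itself holds the signal. A match describes these letters and is not evidence of a site in use.

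No member overlapped another annotated gene, and no other gene lay in any gap. AT2G32240 spans chr2:13684299-13691155 and AT2G32235 spans chr2:13682557-13684248, both on the minus strand. APS1 spans chr3:8112614-8115024 and NRPD7 spans chr3:8115065-8116253, both on the plus strand. AT1G72120 spans chr1:27132014-27134101 and AT1G72125 spans chr1:27134108-27136403, both on the plus strand. PDC2 spans chr5:22310553-22312832 and AT5G54950 spans chr5:22309832-22310332, both on the minus strand. AT3G21670 spans chr3:7626757-7629205 and AT3G21660 spans chr3:7624406-7626654, both on the minus strand. The upstream genes differ in build, from PDC2, which is a single exon of 2280 bases, to AT2G32240 with 7 exons. AT5G54950, annotated as an aconitase family protein, is the shortest member, with 2 exons and a coding length of 225 bases.

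**Figure D1:**
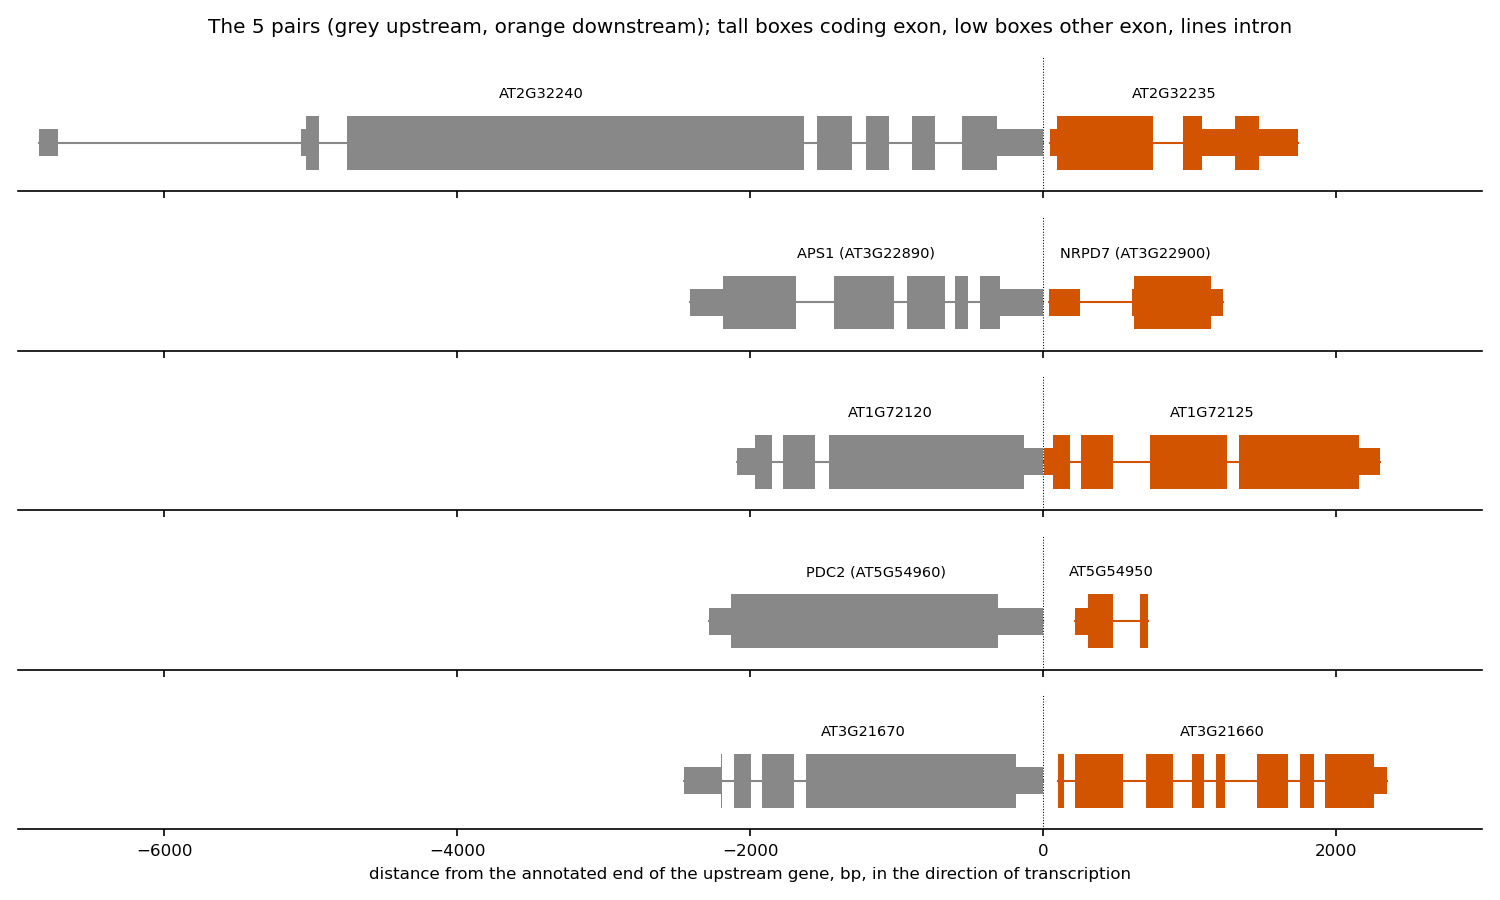
Exon maps of the 5 pairs, aligned at the annotated end of the upstream gene (0 on the horizontal axis, bp, in the direction of transcription), with coding exons as tall boxes, other exons as low boxes and introns as lines. The downstream gene starts 6 bases after AT1G72120 ends and 220 bases after PDC2 ends, and the other 3 gaps lie between.

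Reads that fit both genes of a pair could move counts between them, so shared sequence was counted as stretches of 31 bases. AT1G72120 and AT1G72125, neighbouring members of the NPF transporter family, shared 45 stretches, and 2.54% of the 1772 stretches in AT1G72125 were not unique in the genome. The other 4 downstream genes had no stretch that occurred elsewhere. The library kit does not record the strand, and the annotation version used in counting is not given, so a read that starts in one gene and ends in the next was assigned by rules that are not recorded. Averaged over the 21 libraries, the upstream gene had 18.1 times the CPM of its neighbour for AT1G72120, 22.4 times for AT3G21670, 36.8 times for AT2G32240, 125 times for PDC2 and 231 times for APS1.

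AT2G32235, of unknown function, stood near 1 CPM in control leaves and between 37.5 and 117 CPM in leaves fed LiCl alone or PAP + LiCl. In control leaves it was measured at 0.476, 1.26 and 0.739 CPM and in PAP-fed leaves at 0.704, 0.955 and 1.40 CPM. With LiCl it reached 78.0, 37.5 and 65.2 CPM, and with PAP + LiCl 63.1, 108 and 117 CPM. Every library of these LiCl groups was above every control and PAP library. With ATP as well, the PAP + ATP + LiCl libraries had 16.8, 32.1 and 60.8 CPM, all below the 63.1 CPM of the lowest PAP + LiCl library, and the PAP + ATP libraries had 3.78, 6.33 and 2.87 CPM. The ATP libraries had 1.61, 1.86 and 31.1 CPM, so library 6 alone held most of that group's signal.

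The mean CPM of AT2G32235 was 73.1 times the control mean in LiCl-fed leaves, 94.2 times the PAP mean in PAP + LiCl-fed leaves, and 8.46 times the PAP + ATP mean in PAP + ATP + LiCl-fed leaves. On the log2(CPM + 0.5) scale, which understates changes of genes near or below 0.5 CPM, LiCl added 5.50 ± 0.73 (SE, n = 3 and 3) to control leaves, 5.97 ± 0.73 to PAP-fed leaves and 2.82 ± 0.73 to PAP + ATP-fed leaves. Among all genes tested, 17.6%, 21.6% and 9.44% passed the threshold (adjusted p under 0.05, either direction) in these 3 comparisons. The gene was picked for this pattern, so nothing is read from that background. ATP gave differences of 2.07 ± 0.73 in control leaves, or 0.79 without library 6, 1.63 ± 0.73 in PAP-fed leaves and −1.52 ± 0.73 in PAP + LiCl-fed leaves.

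AT2G32240, the upstream gene, annotated as an early endosome antigen, was also higher with LiCl, by a smaller factor and with wide spread. Its control libraries held 74.8, 1178 and 425 CPM, the PAP libraries 324, 699 and 177 CPM, and the ATP libraries 523, 303 and 939 CPM. Leaves fed LiCl alone gave 2409, 1608 and 1720 CPM, the PAP + LiCl libraries 1242, 1255 and 2154 CPM, and the PAP + ATP + LiCl libraries 929, 1861 and 2111 CPM. The PAP + ATP libraries had 1380, 1246 and 722 CPM, below every library fed LiCl alone and overlapping the other LiCl groups. They were above every PAP library. Control library 1 was the lowest of all 21 libraries and control library 2 was above every PAP and ATP library. The log2 difference of LiCl to control was 2.49 ± 0.72 with all libraries and 1.41 without control library 1. In PAP-fed leaves it was 2.13 ± 0.72, and in PAP + ATP-fed leaves 0.52 ± 0.72.

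Per kilobase of exon, AT2G32235 stood at 0.919% of its upstream gene in control leaves (SD 0.867, n = 3) and at 1.15% ± 1.07 in PAP-fed leaves. It stood at 9.39% ± 2.22 with LiCl, 19.2% ± 5.89 with PAP + LiCl and 6.43% ± 1.94 with PAP + ATP + LiCl. The 9 libraries fed LiCl ranged from 5.18% to 25.9%, and the only other library in that range was ATP library 6 at 9.94%. The downstream gene was thus higher with LiCl than the difference in its neighbour alone would give, by 3.01 ± 0.74 on the log2 scale in control leaves. With ATP, AT2G32235 stood at 4.24% ± 4.96 of its upstream gene, and with PAP + ATP at 1.18% ± 0.352. The log2 ratio difference with ATP was 1.41 ± 0.74 in control leaves and −0.02 ± 0.74 in PAP-fed leaves.

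NRPD7, a subunit of RNA polymerase IV, the plant polymerase that makes precursors of small interfering RNA, was likewise higher with LiCl. Control leaves gave 0.857, 1.67 and 1.20 CPM, the PAP libraries 0.626, 1.54 and 1.22 CPM, the ATP libraries 1.13, 1.02 and 0.899 CPM and the PAP + ATP libraries 0.572, 0.911 and 1.15 CPM. LiCl-fed leaves gave 15.0, 6.77 and 8.80 CPM, and PAP + LiCl-fed leaves 7.28, 25.9 and 11.7 CPM. The PAP + ATP + LiCl libraries had 3.42, 2.03 and 3.03 CPM. The 12 libraries without LiCl stayed at or below 1.67 CPM and the 9 with it at or above 2.03 CPM, and the group that also held ATP was below both other LiCl groups.

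LiCl multiplied the mean CPM of NRPD7 by 8.22 in control leaves, 13.3 in PAP-fed leaves and 3.22 in PAP + ATP-fed leaves, which is 2.57 ± 0.38, 3.10 ± 0.38 and 1.27 ± 0.38 on the log2 scale. ATP gave no such increase: its differences were −0.18 ± 0.38 in control leaves, −0.22 ± 0.38 in PAP-fed leaves and −2.05 ± 0.38 in PAP + LiCl-fed leaves. In the last of these the mean CPM was 5.28 times lower with ATP. There 0.113% of all genes passed the threshold in either direction. The reference, PAP + LiCl, is the group in which NRPD7 had its highest mean, and the gene was picked as high. Nothing is therefore read from that background.

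APS1, the ATP sulfurylase that activates sulfate with ATP in the plastid, was high in all groups and differed little. Buffer-fed control leaves gave 739, 945 and 709 CPM, the PAP libraries 745, 526 and 941 CPM, and the LiCl libraries 1173, 1125 and 1109 CPM. The PAP + LiCl libraries had 1093, 1486 and 1031 CPM and the PAP + ATP + LiCl libraries 1578, 1364 and 1139 CPM. The ATP libraries had 1115, 1099 and 910 CPM and the PAP + ATP libraries 781, 1268 and 1452 CPM. Both LiCl groups without ATP were above every control and PAP library, and the LiCl groups overlapped the PAP + ATP group. The log2 differences with LiCl were 0.52 ± 0.25 in control leaves, 0.73 ± 0.25 in PAP-fed leaves and 0.26 ± 0.25 in PAP + ATP-fed leaves.

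NRPD7 accordingly stood at 0.351% ± 0.0751 of APS1 per kilobase of exon in control leaves and at 0.223% ± 0.0102 with ATP, against 2.04% ± 0.799 with LiCl and 2.69% ± 1.23 with PAP + LiCl. With PAP + ATP + LiCl it was 0.481% ± 0.135, and its 3 libraries overlapped the control and PAP groups, which reached 0.402% and 0.668%. The ratio therefore separated the LiCl groups without ATP from all others, and in those groups NRPD7 remained the far lower gene of its pair.

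**Figure D2:**
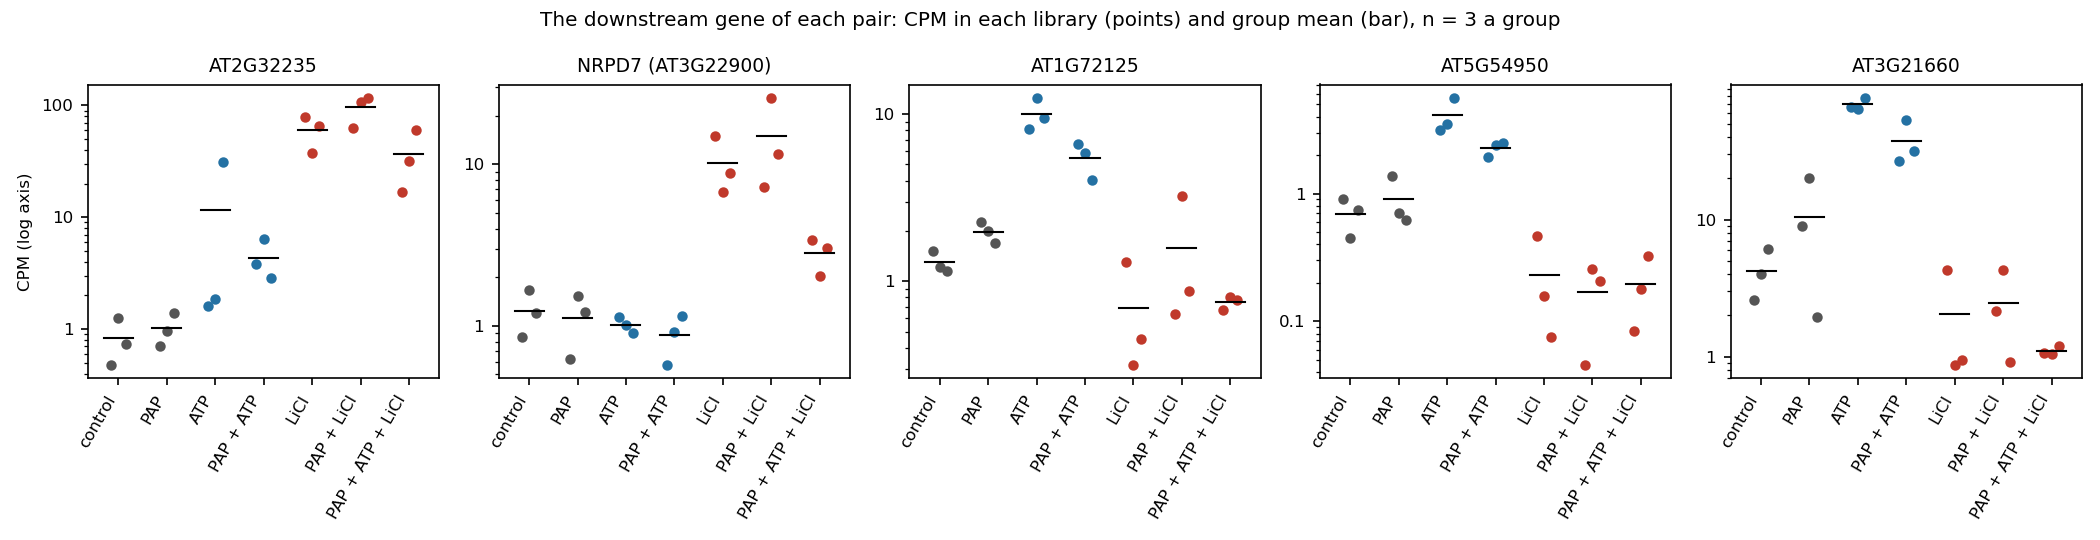
CPM of each downstream gene (log axis) in the 21 libraries (points) with group means (bars), 3 libraries a group, in grey for groups with neither ATP nor LiCl, blue for ATP and red for LiCl. AT2G32235 and NRPD7 are high in red groups, with LiCl libraries at or above 16.8 and 2.03 CPM, and AT1G72125, AT5G54950 and AT3G21660 are high in blue groups, up to 12.5, 5.60 and 77.6 CPM.

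AT1G72125 (NPF5.13), a transporter gene of the NPF family, was high with ATP in leaves without LiCl. Levels in the control libraries were 1.52, 1.22 and 1.15 CPM, the PAP libraries 2.27, 1.99 and 1.69 CPM, the ATP libraries 8.16, 12.5 and 9.44 CPM and the PAP + ATP libraries 6.59, 5.88 and 4.01 CPM. Levels in the LiCl libraries were 1.31, 0.315 and 0.451 CPM, the PAP + LiCl libraries 0.637, 3.23 and 0.877 CPM, and the PAP + ATP + LiCl libraries 0.676, 0.810 and 0.777 CPM. The ATP and PAP + ATP groups did not overlap any other group or each other.

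The mean CPM of AT1G72125 was 7.73 times the control mean with ATP, a log2 difference of 2.54 ± 0.37, and 2.77 times the PAP mean with PAP + ATP, a log2 difference of 1.25 ± 0.37. Of all genes, 7.26% and 6.86% passed the threshold in these comparisons, and the gene was picked for its rise. In leaves that also received LiCl and PAP, the difference with ATP was −0.52 ± 0.37, or 0.00 without PAP + LiCl library 14. LiCl added to PAP + ATP-fed leaves gave −2.23 ± 0.37, a mean 7.28 times lower. In control and PAP-fed leaves the LiCl differences were −0.68 ± 0.37 and −0.46 ± 0.37, with overlapping libraries.

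AT1G72120 (NPF5.14), the upstream gene of the same family, showed no such pattern, and its libraries overlapped in every comparison. For this gene the control libraries had 91.4, 59.6 and 39.1 CPM, the ATP libraries 77.3, 90.9 and 31.8 CPM and the LiCl libraries 65.5, 45.3 and 33.8 CPM. The other 4 groups ranged from 31.1 to 89.0 CPM. Its log2 differences were 0.02 ± 0.45 with ATP and −0.36 ± 0.45 with LiCl in control leaves. AT1G72125 stood at 2.25% ± 0.670 of AT1G72120 per kilobase in control leaves, 18.3% ± 10.4 with ATP, 9.55% ± 4.73 with PAP + ATP and 1.76% ± 0.573 with PAP + ATP + LiCl. The ATP libraries ranged from 10.7% to 30.2% and the control libraries from 1.69% to 2.99%, with no overlap.

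AT5G54950 was the lowest of the 10 genes and passed the filter of 1 CPM in 3 libraries only through groups fed ATP. It was counted at a level of 0.905, 0.447 and 0.739 CPM in the control libraries, and the PAP libraries had 1.37, 0.706 and 0.626 CPM. Feeding ATP gave 3.17, 3.47 and 5.60 CPM, and feeding PAP + ATP gave 1.93, 2.42 and 2.50 CPM. The LiCl libraries had 0.464, 0.157 and 0.0752 CPM, the PAP + LiCl libraries 0.0455, 0.255 and 0.209 CPM, and the PAP + ATP + LiCl libraries 0.0845, 0.180 and 0.327 CPM. In reads these are 73 to 137 per ATP library and 1 to 11 per library fed LiCl, so the values of the LiCl groups rest on few reads. The ATP and PAP + ATP groups lay above all other libraries and did not overlap each other.

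The mean CPM of AT5G54950 with ATP was 5.85 times the control mean and that with PAP + ATP 2.54 times the PAP mean, log2 differences of 1.92 ± 0.28 and 1.02 ± 0.28. In PAP + LiCl-fed leaves the difference with ATP was 0.06 ± 0.28. LiCl gave −0.73 ± 0.28 in control leaves, −1.04 ± 0.28 in PAP-fed leaves and −2.01 ± 0.28 in PAP + ATP-fed leaves, values compressed by the pseudocount of 0.5. PDC2, pyruvate decarboxylase, the enzyme that opens ethanol fermentation, lies upstream and did not share the difference with ATP. Control libraries 1 to 3 had 252, 204 and 164 CPM for PDC2, the ATP libraries 177, 227 and 142 CPM, the PAP libraries 244, 123 and 220 CPM and the PAP + ATP libraries 256, 164 and 276 CPM. The LiCl libraries had 118, 65.8 and 65.7 CPM, and the other 6 libraries fed LiCl ranged from 55.8 to 116 CPM, all below every library without LiCl.

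For PDC2 the log2 differences were −0.19 ± 0.34 with ATP and −1.34 ± 0.34 with LiCl in control leaves. AT5G54950 stood at 2.48% ± 0.841 of PDC2 per kilobase in control leaves, 17.5% ± 9.55 with ATP and 7.57% ± 2.75 with PAP + ATP. With LiCl it was 1.80% ± 1.01, and 2.07% ± 1.43 with PAP + ATP + LiCl, both overlapping the control range of 1.59% to 3.26%. PDC2 was thus lower in every library fed LiCl. AT5G54950 had lower means with LiCl, but LiCl alone overlapped control leaves (up to 0.464 CPM against 0.447 CPM in the lowest control library). With ATP the downstream gene alone was higher.

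AT3G21660, which encodes a protein with a UBX domain, a fold known for binding CDC48, had the highest level with ATP of the 5 downstream genes. The ATP libraries had 66.6, 64.1 and 77.6 CPM and the PAP + ATP libraries 27.0, 53.7 and 31.5 CPM. The control libraries had 2.57, 4.02 and 6.10 CPM and the PAP libraries 8.99, 20.3 and 1.95 CPM. The LiCl libraries had 4.30, 0.866 and 0.940 CPM, the PAP + LiCl libraries 2.14, 4.29 and 0.919 CPM, and the PAP + ATP + LiCl libraries 1.06, 1.04 and 1.19 CPM. The 6 libraries fed ATP without LiCl were above all 15 others, and the PAP group spanned a range of 10.4-fold.

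ATP gave AT3G21660 a mean 16.4 times the control mean, a log2 difference of 3.95 ± 0.62, and 3.59 times the PAP mean in PAP-fed leaves, a log2 difference of 2.21 ± 0.62, or 1.37 without PAP library 9. In PAP + LiCl-fed leaves the difference with ATP was −0.72 ± 0.62. LiCl added to PAP + ATP-fed leaves gave −4.51 ± 0.62, a mean 34.2 times lower. AT3G21670 (NPF6.4), its upstream neighbour of the nitrate and peptide transporter family, was not higher with ATP and was lower with LiCl. The control libraries had 1080, 591 and 534 CPM, the ATP libraries 693, 539 and 236 CPM, the PAP libraries 887, 659 and 777 CPM and the PAP + ATP libraries 476, 368 and 665 CPM. All 9 libraries fed LiCl lay between 66.8 and 176 CPM, below every library without it.

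The log2 differences of AT3G21670 were −0.65 ± 0.39 with ATP and −2.55 ± 0.39 with LiCl in control leaves, with nearly the same LiCl values in PAP-fed leaves (−2.57) and PAP + ATP-fed leaves (−2.55). AT3G21660 stood at 1.07% ± 0.705 of AT3G21670 per kilobase in control leaves, 28.3% ± 20.0 with ATP, 13.0% ± 8.49 with PAP + ATP and 2.16% ± 0.753 with PAP + ATP + LiCl. Library 6, the ATP library with the least AT3G21670, gave the highest of all these ratios, 51.3%.

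**Figure D3:**
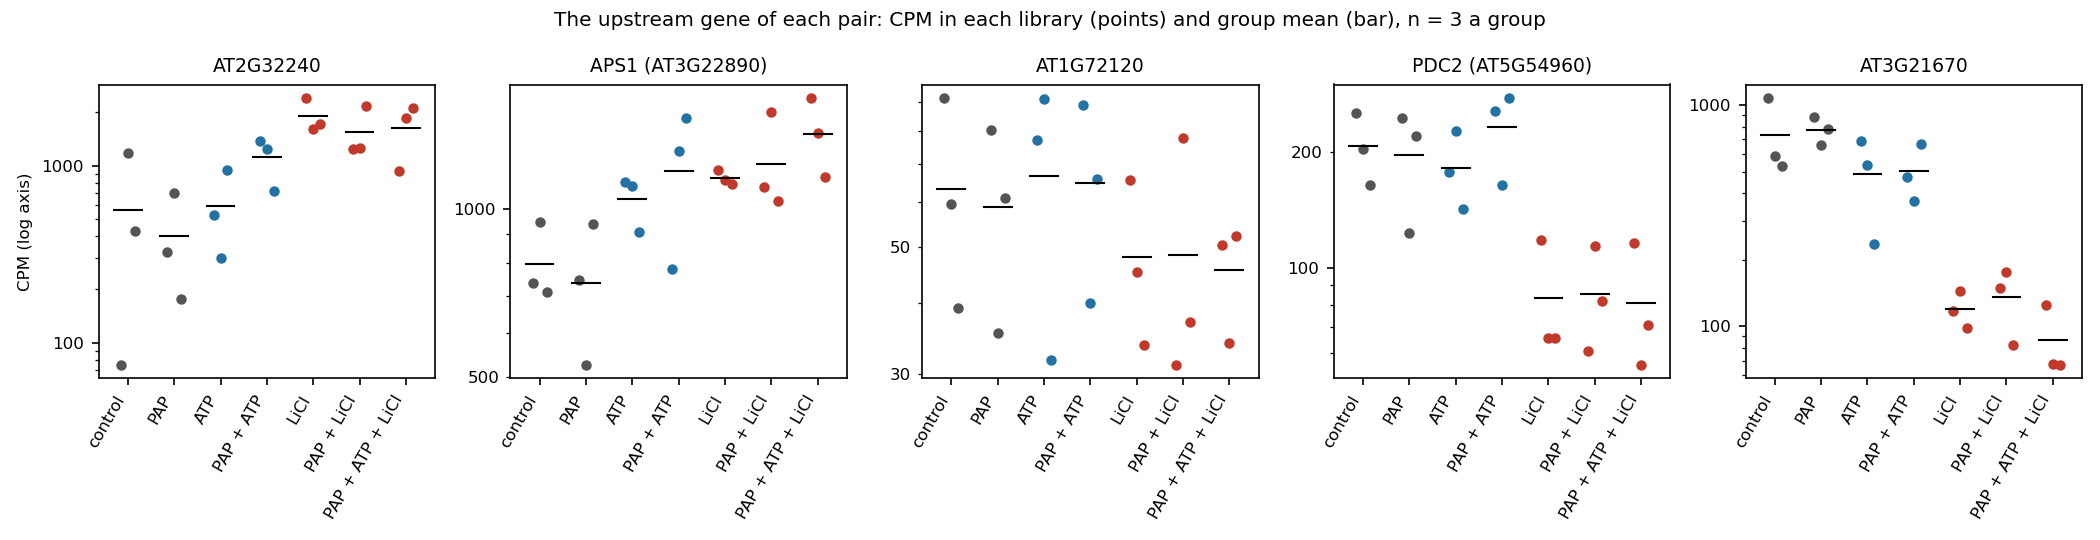
CPM of each upstream gene (log axis) in the 21 libraries (points) with group means (bars), 3 libraries a group, in the same colours as for the downstream genes. AT2G32240 and APS1 have higher group means with LiCl than in control leaves. For AT2G32240 the lowest PAP + ATP + LiCl library (929 CPM) lies below the highest control library (1178 CPM). PDC2 and AT3G21670 are lower with LiCl, at 55.8 to 118 and 66.8 to 176 CPM, and AT1G72120 overlaps in all groups.

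**Figure D4:**
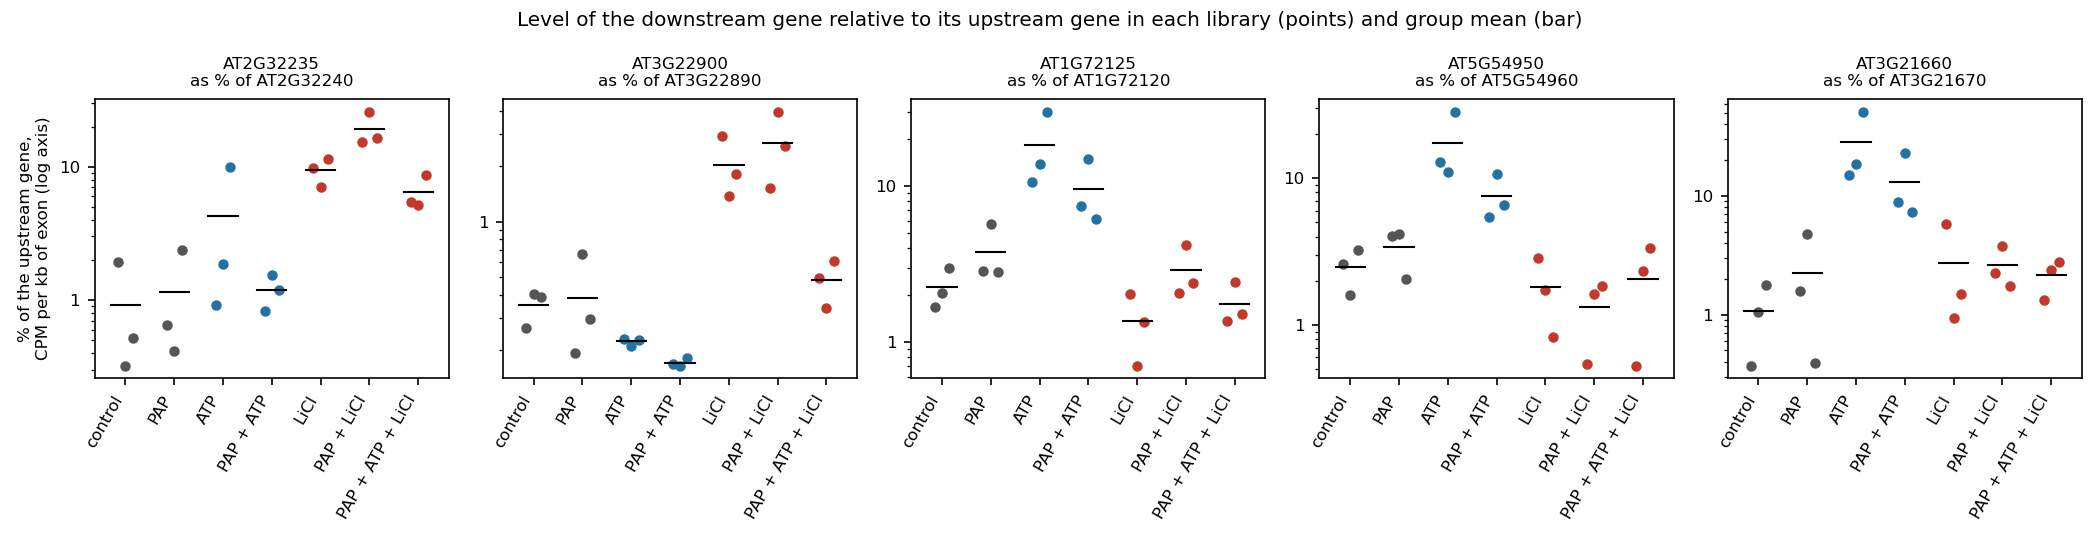
Level of each downstream gene as a percentage of its upstream gene, both as CPM per kilobase of exon (log axis), per library (points) with group means (bars). In the first 2 pairs the percentage is highest with PAP + LiCl (19.2% and 2.69% on average) and in the other 3 with ATP (18.3%, 17.5% and 28.3%), and no downstream gene reaches its upstream gene.

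Side by side, LiCl and ATP went with different downstream genes, except that AT2G32235 was higher with LiCl and, in leaves without LiCl, with ATP. The comparisons with control leaves share the control libraries. With LiCl in control leaves, 2 of the 5 downstream genes were higher in every library and none was lower, where 14.1% of all genes tested were higher in every library and 19.1% lower. With ATP in control leaves, 4 of the 5 were higher in every library, where 5.75% of all genes were, and NRPD7 overlapped. AT2G32235 was among the 4 through library 6 and 2 others just above the control range. Of the 5 upstream genes, LiCl left 2 higher and 2 lower in every library, and ATP left all 5 overlapping with control leaves, where 19.3% of all genes were lower in every library. In PAP + ATP-fed leaves the addition of LiCl left 2 downstream genes higher and 3 lower in every library, beside 16.7% and 13.3% of all genes. In PAP-fed leaves LiCl left 2 downstream genes higher and 1 lower in every library, beside 16.7% and 21.7% of all genes, and ATP left 4 higher and none lower, beside 12.5% and 12.3%. In PAP + LiCl-fed leaves ATP left none higher and 2 lower, AT2G32235 among them, beside 13.7% and 5.77%. Of the 5 upstream genes in PAP-fed leaves, ATP left 1 higher, AT2G32240, and none lower, beside 12.5% and 12.3% of all genes. The members were chosen on such differences, so nothing is read from these shares.

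Adding PAP to control leaves gave no call among the 10 genes, and that comparison is not independent of the choice of pairs. The control libraries may also have served in the choice. In ATP-fed and LiCl-fed leaves the references include the libraries in which downstream genes were picked as high. No outcome of a test is given for the members there. With limma over all genes tested, 0.0% of 17657 genes passed the threshold when PAP was added to control leaves, 0.0% of 17710 in ATP-fed leaves and 0.0% of 17609 in LiCl-fed leaves. The counts at an unadjusted p under 0.05 were 847, 1897 and 130 genes. Quasi-likelihood tests of edgeR on the recovered reads also called 0 genes in each. DESeq2 called 1 gene in control leaves, which was not a member, 128 in ATP-fed leaves and 0 in LiCl-fed leaves.

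In ATP-fed leaves the differences with PAP are a description with no test. AT1G72125, AT5G54950 and AT3G21660 were each lower in every PAP + ATP library than in every ATP library, with log2 differences of −0.82 ± 0.37, −0.69 ± 0.28 and −0.94 ± 0.62, where 5.75% of all genes were lower in every library. Their upstream genes AT1G72120, PDC2 and AT3G21670 differed by 0.02 ± 0.45, 0.34 ± 0.34 and 0.13 ± 0.39, with overlapping libraries.

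In control leaves PAP left AT1G72125 higher in every library, where 2.72% of all genes were, with a log2 difference of 0.47 ± 0.37 (limma adjusted p = 0.984), and the other 9 genes overlapped, where 4.37% of all genes were lower in every library. AT3G21660 differed by 0.80 ± 0.62 (limma adjusted p = 0.984), with a 95% interval from −0.51 to 2.11. Its difference was 0.10 without PAP library 8 and 1.64 without PAP library 9. In LiCl-fed leaves all 10 genes overlapped between groups, where 1.79% of all genes were higher and 4.34% lower in every library. The differences of AT2G32235 and NRPD7 with PAP were 0.68 ± 0.73 and 0.42 ± 0.38, a description with no test.

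**Figure D5:**
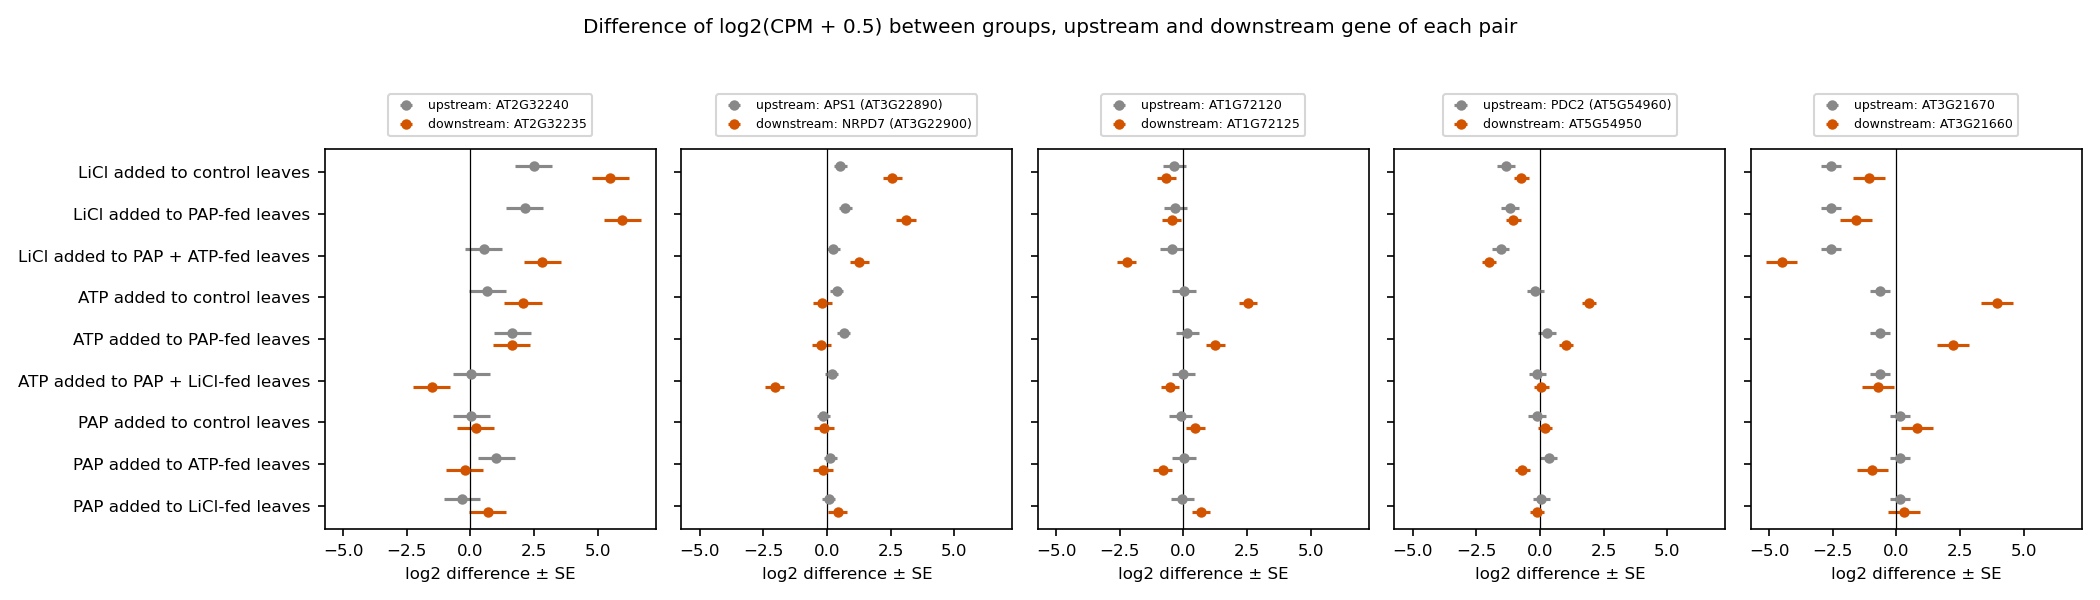
Differences of log2(CPM + 0.5) between groups (points) with their standard errors (lines), 3 libraries a group, for the upstream gene (grey) and downstream gene (orange) of each pair in 9 comparisons. Adding LiCl to control leaves gave 5.50 for AT2G32235 and 2.57 for NRPD7, adding ATP gave 2.54, 1.92 and 3.95 for the other 3 downstream genes, and the PAP differences lie between −0.94 and 1.02.

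The 5 pairs are few among genes with this arrangement. Over the whole series, 949 downstream genes had a same-strand neighbour that ended at most 500 bases before them and held at least 10 times their mean CPM, and all 5 pairs were among them. For the mean LiCl difference over the 3 backgrounds, 428 could be tested, and 99 of them (23.1%) were higher and 70 (16.4%) lower, beside 20.1% and 21.5% of all genes. Their median difference was 0.05, against 0.01 for all genes. With ATP, 29 of 429 (6.76%) were higher and 44 (10.3%) lower, beside 5.91% and 9.17% of all genes, and the medians were −0.02 and −0.05. With PAP none of 429 was called in either direction, and 0.0% of all genes were. Low genes reach such a test only where some group lifts them past 1 CPM, so these counts do not stand for all 949.

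Within that set the members were ranked by their differences, as a description of how they were chosen. AT2G32235 had the highest LiCl difference of the genes tested in each of the 3 backgrounds, among 433, 440 and 450, and NRPD7 ranked 7, 6 and 10. With ATP in control leaves AT3G21660 ranked 1, AT1G72125 7, AT2G32235 10, AT5G54950 17 and NRPD7 261 of 435. With ATP in PAP + LiCl-fed leaves the 5 genes ranked from 142 (AT5G54950) to 440 (NRPD7) of 451. With LiCl in PAP + ATP-fed leaves AT3G21660 was the lowest of 450.

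The genes next to the pairs on the chromosome were compared by their mean LiCl difference over the 3 backgrounds, a comparison in which 41.6% of all genes passed the threshold. PRORP1, a protein-only RNase P that starts 223 bases after AT2G32235 on the same strand, differed by 0.53 ± 0.23 (limma adjusted p = 0.0735). The gene past NRPD7, AT3G22910, ends 38 bases from it on the opposite strand and fell by 0.82 ± 0.29 (adjusted p = 0.0335). AT1G72130, the next gene after AT1G72125 on the same strand, 698 bases on, fell by 1.66 ± 0.18 (adjusted p = 2.57e-06). AT5G54940, 378 bases past AT5G54950, and AT3G21650, 272 bases past AT3G21660, did not pass the threshold, with differences of −0.48 ± 0.24 and −0.19 ± 0.15.

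On the side before the pairs, AT5G54970, which lies 143 bases before PDC2 on the opposite strand, fell by 0.74 ± 0.20 with LiCl (adjusted p = 0.0064). FRS2, before AT2G32240 on the opposite strand, rose by 1.03 ± 0.20 as the mean ATP difference (adjusted p = 0.00457, with 15.1% of all genes called). No other neighbour that was tested passed the threshold for ATP, and none did for PAP. AT3G21680 and MIR167a were too low for the test, and AT1G72110 was not in the table.

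APS1, PDC2, the NPF genes and NRPD7 belong to pathways whose other genes were counted from lists, for the mean LiCl difference with limma, in which 20.1% of all genes rose and 21.5% fell. Of 11 other genes of sulfate activation and reduction, 2 rose and 6 fell, with a median of −0.45. APS3, a second ATP sulfurylase, rose by 1.46 ± 0.19, and the APS reductases APR3, APR1 and APR2, which carry the step after APS1, fell by 1.87 ± 0.27, 1.10 ± 0.29 and 0.78 ± 0.21. Of 4 other genes of pyruvate decarboxylation and fermentation 2 fell, ALDH2B7, a mitochondrial aldehyde dehydrogenase, by 1.31 ± 0.20 and ADH1, alcohol dehydrogenase, by 0.86 ± 0.20. Of 9 other NPF transporters 1 rose and 4 fell. The nitrate transporter NRT1.1 fell by 1.66 ± 0.31 and AT1G72140 by 1.75 ± 0.36, while PTR3 rose by 1.76 ± 0.39.

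Among 11 other genes of RNA polymerases IV and V and RNA-directed DNA methylation, 8 rose and 1 fell, beside the 20.1% and 21.5% of all genes, and the median was 0.69 against 0.01 for all genes. NRPD2, the second-largest subunit shared by both polymerases, rose by 1.37 ± 0.29, AGO4 by 1.20 ± 0.29, NRPE1, the largest subunit of polymerase V, by 0.93 ± 0.30 and DCL3 by 0.92 ± 0.24. NRPD7 itself had a mean LiCl difference of 2.31 ± 0.22. It was picked for its rise, so nothing is read from its place above these named genes. Of 15 genes of SAL1, the XRN enzymes and 3' end formation, a list that holds no member, 3 rose and 1 fell, a share of rises near that of all genes. PAPS1, a poly(A) polymerase, rose by 0.87 ± 0.19, XRN3, a nuclear exoribonuclease, by 0.61 ± 0.20 and CPSF73-I, the cleavage endonuclease, by 0.45 ± 0.17. SAL1 fell by 0.48 ± 0.17. XRN2 and XRN4 did not pass, at 0.37 ± 0.22 and 0.28 ± 0.18. With ATP the counts of other genes were 1 rise and 1 fall for sulfate, 1 fall for NPF, 2 rises for 3' end formation and 0 for the other 2 lists, beside 5.91% rises and 9.17% falls of all genes. With PAP no gene of any list passed, and 0.0% of all genes did.

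Profiles over the 7 group means were compared with those of 16609 genes by the root mean square difference of centred log2(CPM + 0.5). AT5G54950 was matched most closely by AT5G25280, a serine-rich protein-like gene (0.14), AT5G21030, an Argonaute-like gene with PAZ and piwi domains (0.18), and DREB2C, a transcription factor (0.20), beside its own spread of 0.99. AT1G72125 was nearest to AT5G21030 (0.25), to AT5G54950, the downstream gene of another pair (0.28), and to AT5G25280 (0.30), beside a spread of 1.10. Both members were picked for a rise in these same groups, so nothing is read from their likeness. AT5G54950 and AT5G21030 had mean levels of 1.22 and 1.19 CPM, where the pseudocount compresses profiles, while AT5G25280 had 130 CPM. AT3G21660 was nearest to NAC6, LEA7 and DIN11, at 0.64, 0.65 and 0.71 beside a spread of 1.95. NRPD7 was nearest to AT3G48900, AT1G72530 and AT4G39952, at 0.30 to 0.31 beside 1.29, and AT2G32235 to AT5G41100, AT4G31805 and CRK10, at 0.70 to 0.81 beside 2.33.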

How the data were processed

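Alignment used Subread and gene counting used featureCounts, with the build TAIR10, per the submitters' processing notes. Tool versions are not given in the sources used here. The deposited table gives CPM, which the authors scaled to the library total, for 21156 genes in 21 columns. Column names carry the group and not the replicate number of the labels, so libraries are numbered by column. Dividing each column by the value of 1 read gave whole numbers for 100% of entries (tolerance 1e-06), and these reads were used in the count tests. No value was 0, and all 10 members had values in every library. No 2 libraries of a group agreed within sampling noise: the least chi-square per degree of freedom was 23.6.

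In R 4.3.3, limma 3.58.1 (trend) was fitted to log2(CPM + 0.5) of the 21 libraries, with 1 mean per group, for 17794 genes that reached 1 CPM in 3 or more libraries. Tests were two-sided with Benjamini-Hochberg adjustment over all genes, threshold 0.05. The same fit was made to log2 downstream minus upstream values of 2995 same-strand pairs at most 500 bases apart. The mean of 3 backgrounds averages the effect of adding 1 agent over its 3 comparisons. Alternatives included edgeR 4.0.16 and DESeq2 1.42.0, and the script was tested on simulated data. Positions and sequences are from RefSeq's annotation of TAIR10.1, which held 20952 (99.0%) of the loci.

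The members and lists were chosen with earlier results of these data known, so members get p-values only for PAP added to control leaves, whose control libraries the choice may also have used. Named were all members, the next gene on each side of a pair, SAL1, XRN2, XRN3 and XRN4, up to 4 other genes per list with the largest called LiCl difference, and the 3 nearest profiles per downstream gene among genes with a mean CPM of at least 1.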

Additional observations from a re-analysis of the deposited data

Results flagged for a closer look

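AT2G32235 and AT1G72125 moved in opposite directions under the same addition in different backgrounds, with no overlap of libraries in either. For AT2G32235, ATP gave a log2 difference of 2.07 in control leaves, or 0.79 without library 6, and 1.63 in PAP-fed leaves. In PAP + LiCl-fed leaves ATP gave −1.52. Of all genes, 5.75% and 12.5% were higher and 5.77% lower in every library there. For AT1G72125, PAP gave 0.47 in control leaves (limma adjusted p = 0.984) and −0.82 in ATP-fed leaves. Of all genes, 2.72% were higher and 5.75% lower in every library there. Both negative values start from the group in which the gene had its highest mean, and the genes were picked as high. These differences between backgrounds were not tested. With 3 libraries a group, no single library was tested for standing apart.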

How the results depend on the processing

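No downstream gene's LiCl or ATP difference in control leaves changed sign under any alternative run. No member was called for PAP in control leaves under any alternative run. DESeq2 called 1, 128 and 2 genes for PAP in control leaves, ATP-fed leaves and the mean of 3 backgrounds, against 0 with limma. Leaving out each library in turn gave 0 to 4 genes for PAP in control leaves and in ATP-fed leaves. In control leaves the 4 came without control library 1. In ATP-fed leaves 3, 4, 1 and 3 genes came without control library 1, control library 2, PAP library 9 and PAP + ATP library 16. The ATP mean called 1699 to 3465 genes against 2636 (1699 without PAP + ATP library 16), and the LiCl mean 6422 to 7613.

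For LiCl in control leaves, AT5G54950 moved from −0.73 to −1.39 with a pseudocount of 0.1, −0.27 with 2, −1.58 with edgeR and −1.59 with DESeq2. AT2G32235 gave 4.41 with a pseudocount of 2, and NRPD7 (AT3G22900) 1.86 with 2, 3.06 with edgeR and 3.08 with DESeq2. For ATP in control leaves, AT5G54950 gave 2.39 with 0.1, 1.15 with 2, 2.68 with edgeR and 2.75 with DESeq2. AT1G72125 gave 1.85 with 2, 3.12 with edgeR and 3.18 with DESeq2, and AT2G32235 3.85 and 3.90 with these tools. A larger pseudocount compresses low genes by construction.

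Without 1 library, the LiCl differences in control leaves were 5.28 to 5.80 for AT2G32235, 2.27 to 2.81 for NRPD7, −1.03 to −0.45 for AT1G72125, −0.94 to −0.57 for AT5G54950 and −1.68 to −0.78 for AT3G21660. The ATP differences were 0.79 to 2.75, −0.34 to −0.01, 2.37 to 2.67, 1.69 to 2.06 and 3.67 to 4.23 in the same order. AT2G32240 changed sign without control library 1, to −0.42 for ATP and −1.05 for PAP in control leaves, and AT2G32235 gave 1.05 for PAP in ATP-fed leaves without ATP library 6. A mean CPM of at least 5 removed NRPD7, AT1G72125 and AT5G54950, which have no value there. No paired analysis was possible because the columns carry no replicate numbers. Depth limits AT5G54950 most, at 1 to 11 reads per library fed LiCl.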
